A study of Mus musculus with 12 samples.

Results

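Oxidative phosphorylation genes, the nuclear genes for the enzymes of mitochondrial respiration, were followed in the hippocampus and cortex of aged 3×TgAD mice treated with amitriptyline (AMI), an antidepressant, or with vehicle. They were chosen by symbol: Nduf for complex I, Sdha to Sdhd for complex II, Uqcr for complex III, Cox4 to Cox8 for complex IV and Atp5 for complex V. This gave 77 genes of 18097 named on the arrays, with 35 in complex I, 3 in complex II, 6 in complex III, 17 in complex IV and 16 in complex V. Each gene was read with its brightest probe, since 95 of the 25697 probes named these genes. Symbols do not always follow function. Ndufaf1 encodes an assembly factor of complex I rather than a subunit, Cox7a2l a factor that joins complexes III and IV, Cox4nb a subunit of an endoplasmic reticulum membrane complex, and Atp5s and Atp5sl proteins outside the ATP synthase itself.

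All mice were male and carried the 3×TgAD transgenes, which combine mutant human amyloid precursor protein, mutant human tau and a mutant presenilin. They were 14 months old at the start, drank water with or without AMI hydrochloride at 100 µg/g body weight for 4 months, and were sampled at 18 months. Per the study's methods, BrdU, a label of dividing cells, was injected into both groups midway. Each of the 4 groups had 3 arrays, 12 in all. No non-transgenic mice were included, so every comparison lies within the transgenic line. Which mouse gave which array is not given in the sources used here, and p-values measure the spread between these arrays.

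The respiratory chain passes electrons from NADH through complex I, or from succinate through complex II, to complexes III and IV, and the proton gradient built on the way drives ATP synthesis by complex V. Complexes I, III, IV and V also hold subunits encoded in mitochondrial DNA, which are not followed here. Neurons depend on this pathway for synaptic transmission, and several complex IV subunits exist as alternative isoforms in muscle, testis or brain.

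Most of these genes were well detected. Of the 77 genes, 63 were detected on all 12 arrays (81.8%, against 42.7% of all probes). The signal of one probe is not a measure of its gene's level against another gene, so isoforms were compared only by detection. Cox4i1, Cox6a1, Cox6a2, Cox6b1, Cox7a1, Cox7a2, Cox7a2l, Atp5g2, Atp5g3 and Ndufa4 were detected on every array. Cox4i2, Cox7b2, Cox8c, Atp5k, Ndufab1, Ndufs1 and Uqcrq were not well above background on any array, so nothing is reported on their levels. Ndufab1, Ndufs1 and Uqcrq encode ubiquitous subunits of complexes I and III. Detection was partial for Atp5e, Cox6b2, Cox7b, Cox8b, Ndufb11, Ndufb4 and Uqcrfs1. In the hippocampus 70 genes were tested, and 67 in the cortex, where Cox7b, Ndufb11 and Uqcrfs1 dropped out.

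Between 48.99% and 51.68% of probes were detected per array. Of the 4 tested dentate granule cell markers, which label the hippocampus, 3 were higher in the hippocampus of vehicle mice (limma, adjusted p under 0.05), and of 6 markers of the striatum, which borders the cortex, 5 were higher in the cortex. The hippocampal and cortical arrays were exported by different scanner software, so tissue and run cannot be told apart. In bulk tissue, fewer cells of a type and less RNA per cell cannot be told apart either.

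The first comparison asked whether AMI altered respiratory gene expression in the hippocampus. By limma, none reached an adjusted p under 0.05 (0 of 70, background 0% of 13163 probes), and most differences were small. The median log2 difference between AMI and vehicle was -0.056, against 0.014 over all tested probes, with 22 genes higher and 48 lower. In complex I 26 of 33 values were below 0, with a median of -0.063, in complex III 4 of 5, and complex V was close to even at 7 higher and 8 lower (median -0.0088). At an unadjusted p under 0.05 there was 1 gene (Ndufb4), against a background of 2.35% of probes. The median standard error of a gene was 0.14. In the same comparison all 8 oligodendrocyte markers had negative differences (median -0.49), as had all 4 choroid plexus markers (median -1.06), and all 3 red blood cell genes had positive ones (median 0.80), none called. By array, the choroid plexus markers were above their mean only on vehicle replicate 3 (median deviation 2.50). The red blood cell genes lay at 1.28 on AMI replicate 3, 0.34 on AMI replicate 1 and -0.33 on AMI replicate 2. The part of these cell types in the values of the respiratory genes was not tested.

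That gene was Ndufb4, an accessory subunit of the membrane arm of complex I. Its normalized log2 level, relative to each array's mean, was -0.24, -0.52 and -0.81 on the vehicle arrays and -0.06, -0.08 and -0.26 on the AMI arrays. The groups overlapped slightly, since the highest vehicle array lay above the lowest AMI array. The log2 difference was 0.39 (SE 0.15, adjusted p = 1). Its probe was detected on 5 of the 6 hippocampal arrays.

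Ndufb5, another accessory subunit of the membrane arm, was the only hippocampal gene whose AMI arrays all lay above its vehicle arrays (background 4.38%). Its levels were 2.10, 1.89 and 1.82 with vehicle and 2.20, 2.10 and 2.21 with AMI, so the groups came within rounding of each other. The difference was 0.23 (SE 0.11, adjusted p = 1). In the opposite direction, Atp5d and Cox7a2l had separate groups (2 genes, background 3.52%). Atp5d, which encodes the delta subunit in the central stalk of ATP synthase, read 4.34, 4.36 and 4.41 with vehicle and 4.34, 4.01 and 4.13 with AMI, a difference of -0.21 (SE 0.11). One AMI array all but reached the vehicle range. Cox7a2l read 4.46, 4.29 and 4.27 with vehicle and 4.08, 4.21 and 4.24 with AMI, a difference of -0.16 (SE 0.10). An exact permutation test of 3 against 3 arrays cannot give a two-sided p below 0.1.

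Ndufa3, a small complex I subunit that together with Ndufb5 is listed by the study as altered on these same hippocampal arrays, read 5.39, 5.05 and 5.29 with vehicle and 5.10, 4.88 and 5.02 with AMI. The groups overlapped. The difference was -0.24 (SE 0.12, adjusted p = 1). Because the study picked both genes on these libraries, neither is independent evidence.

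A few larger hippocampal differences came from single arrays. Cox8b, a complex IV isoform typical of muscle, read -0.55, -0.43 and 1.70 with vehicle and -0.53, -0.33 and -0.36 with AMI. Only vehicle replicate 3 was high. The difference was -0.65 (SE 0.51), and 0.085 without that array. On the same array the 4 detected choroid plexus markers lay a median of 2.50 above their mean over the 6 hippocampal arrays, all 4 of them above it, and the part of this tissue in the Cox8b value was not tested. Ndufb10, an accessory subunit of complex I, read 2.78, 1.24 and 2.32 with AMI and 2.89, 2.56 and 2.59 with vehicle. AMI replicate 2 alone was low, and the difference of -0.56 (SE 0.33) became -0.13 without it.

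The hippocampal replicate numbers were taken as pairing the arrays, which the sample titles do not state. The hippocampal standard errors and p-values above come from a fit that leaves this pairing out. With the number as a block the genes with an unadjusted p under 0.05 rose from 1 to 9 (background 8.08%), still with none at an adjusted p under 0.05. Those with positive differences were Ndufb4, Ndufb5, Cox6c and Atp5a1. Cox6c encodes a small complex IV subunit and Atp5a1 the alpha subunit of ATP synthase, and their differences were 0.29 (SE 0.087) and 0.25 (SE 0.080) in the blocked fit. Negative were Ndufa3, Ndufb10, Cox6b1, Cox4i1 and Atp5b, from -0.20 for Cox4i1, a complex IV subunit, to -0.56 for Ndufb10. The lowest adjusted p among them was 0.566.

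In the cortex, likewise, no gene passed (0 of 67, background 0% of 12944 probes). The median log2 difference was -0.029, against 0.022 over all tested probes, with 28 genes higher and 39 lower. Complex II had a median of 0.062 over 3 genes and complex III -0.13 over 4. At an unadjusted p under 0.05 there was 1 gene, against a background of 6.28%.

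Uqcrc1, a core subunit of complex III, was that gene. Its vehicle arrays read 4.25, 4.21 and 4.12, and its AMI arrays 3.94, 3.97 and 3.90. The groups stood clear of each other, with the arrays of each group lying close together. The difference was -0.26 (SE 0.085, adjusted p = 0.756), and it ranged from -0.23 to -0.30 when each array was left out in turn. Uqcrc1 was the only cortical gene lower in every AMI array (background 4.13%), and it too is listed by the study as altered on these arrays. In the hippocampus its difference was -0.048 (SE 0.13).

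Atp5f1, a stator subunit that holds the ATP synthase head in place, was the only cortical gene with all AMI arrays above all vehicle arrays (background 8.10%). It read 2.97, 2.89 and 3.03 with vehicle and 3.20, 3.10 and 3.16 with AMI. The difference was 0.19 (SE 0.086, adjusted p = 0.781). No gene had separate groups in the same direction in both tissues.

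The largest cortical difference, -0.56 (SE 0.34), was that of Cox6a2, the heart and muscle isoform of a complex IV subunit. It read 1.70, 1.39 and 0.24 with vehicle and 0.42, 0.89 and 0.33 with AMI. Both other vehicle arrays lay above the AMI range while vehicle replicate 3 lay below it. Ndufa3 had the same shape, at 4.58, 4.47 and 3.04 with vehicle and 3.69, 4.07 and 3.20 with AMI, a difference of -0.38 (SE 0.39).

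**Figure D1:**
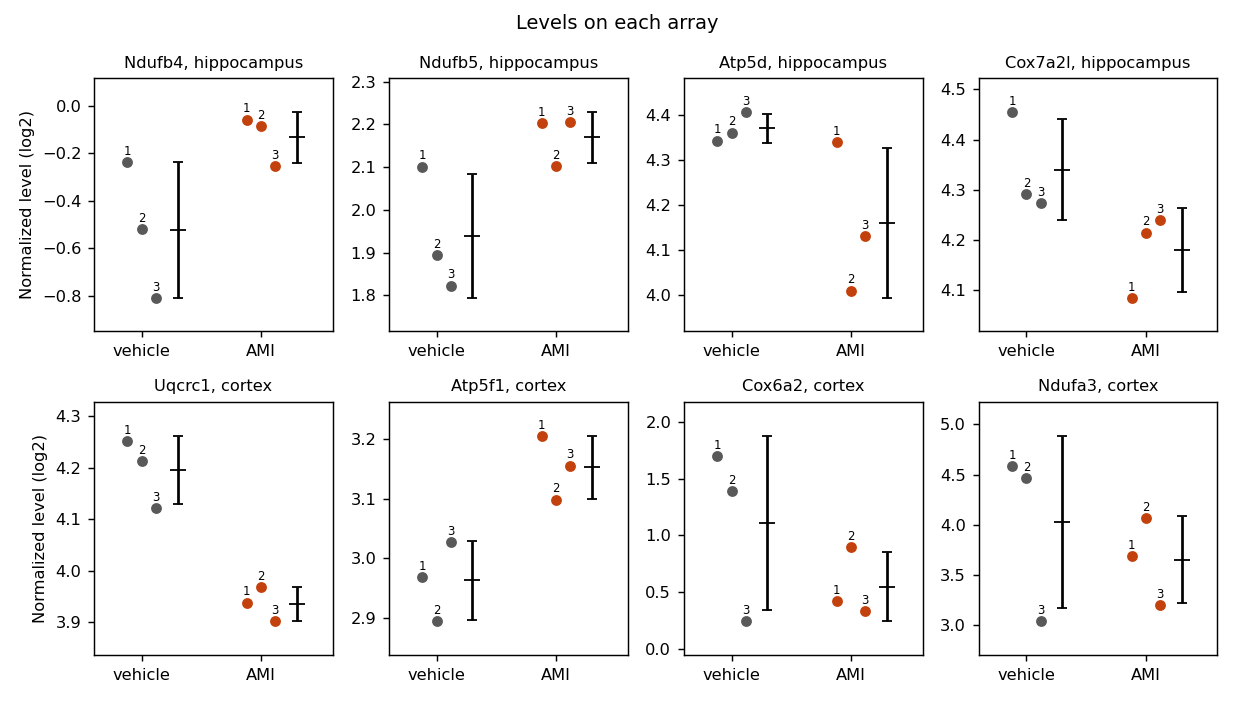
Normalized log2 level (y axis, relative to the array mean) of 4 genes measured in hippocampus and 4 measured in cortex, on the 3 vehicle (grey) and 3 AMI (orange) arrays, numbered by replicate, with mean and SD in black. Uqcrc1 and Atp5f1 separate in the cortex, while Cox6a2 and Ndufa3 are low on cortical vehicle replicate 3.

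Most of the pathway was low on the same array. Cortical vehicle replicate 3 had 62 of 67 genes below their mean over the 6 cortical arrays, with a median deviation of -0.41, while the 12430 probes tested in both tissues had a median of -0.0068 there. It was the lowest of the 6 cortical arrays for 48 genes (71.6%, against 23.1% of all probes). The other two vehicle arrays were high, at 0.23 and 0.18, and the AMI arrays lay between, at 0.015, 0.061 and -0.079. Hence the vehicle group spanned the AMI group.

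Every complex was low on this array, though unequally. Complex I had a median of -0.47 with 31 of 32 genes below the mean, complex IV -0.43 with 12 of 13, complex V -0.24 with 14 of 15, complex II -0.22 with 3 of 3, and complex III -0.18 with 2 of 4. Within complex I as grouped by symbol, the 25 genes counted as accessory subunits, Ndufa4 among them, had a median of -0.61. The 6 core subunits, which carry the redox centres and the ubiquinone site, had -0.30. The lowest genes were small accessory subunits, Ndufc1 at -0.92, Ndufa1 at -0.91 and Ndufa3 at -0.85, followed by Ndufb3, Cox6c and Uqcr. Above their mean were Atp5b (0.31), the catalytic beta subunit of ATP synthase, Ndufv1 (0.27), the NADH-binding subunit, Uqcrc2 (0.21), Cox7a2l (0.11) and Uqcrc1 (0.060).

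The low values did not depend on the scaling. The median deviation on this array was -0.44 after quantile normalization and -0.59 after median centring, and 59 and 67 genes lay below the mean. All probes tested in both tissues had medians of 0.0081 and -0.086 on this array under these scalings. Other families, chosen after these values were seen, were also low there: 60 cytoplasmic ribosomal protein genes at -0.34, 64 mitochondrial ribosomal protein genes at -0.27 (61 below the mean) and 31 proteasome subunit genes at -0.11. In contrast, 15 citric acid cycle genes had a median of 0.093, 9 mitochondrial carriers and pores -0.019, 12 regulators of mitochondrial genes -0.062, and 18 assembly factors with cytochrome c and Cyc1 -0.086.

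Cell type markers on the array were given by their list medians. All 8 oligodendrocyte markers (0.21), all 7 endothelial markers (0.25) and all 3 red blood cell genes (0.50) were above their mean, and neuronal markers were at -0.12 (4 of 6 below). The other lists were also split. Below their mean were 4 of 7 astrocyte (-0.079), 6 of 9 microglial (-0.055) and 2 of 3 dentate granule cell markers (-0.012). Above it were 4 of 6 striatal (0.074) and 5 of 6 choroid plexus markers (0.14). The array detected 50.77% of probes, the most of the cortical arrays, and the ratio of median detected to undetected signal was 2.94, the lowest, next to 2.96 on AMI replicate 3. The part of cell makeup, RNA quality or signal range in the low values was not tested.

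**Figure D2:**
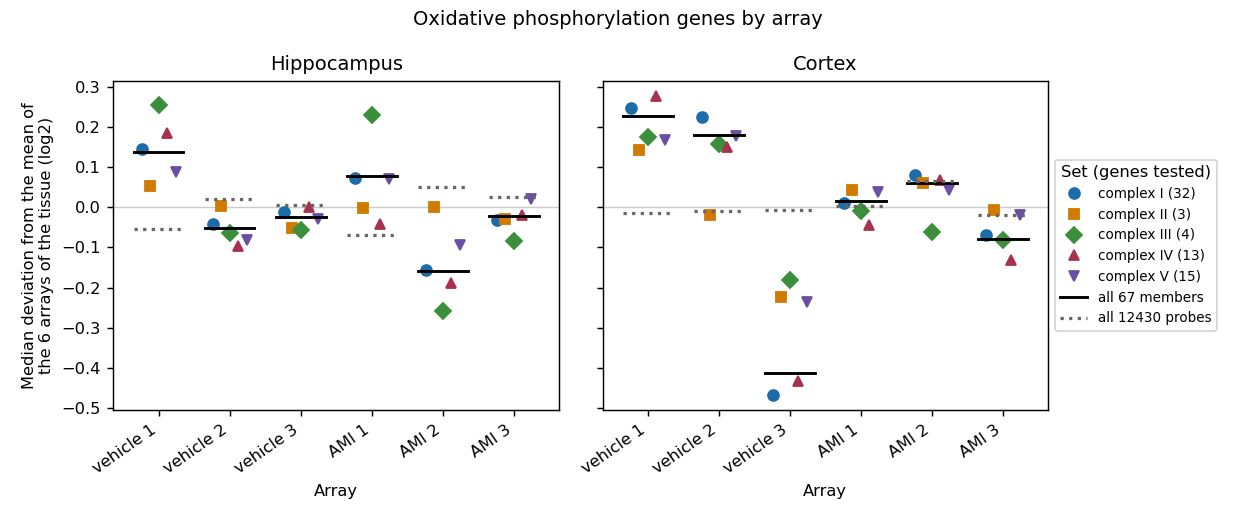
Median log2 deviation of the genes of each complex (coloured symbols) from their mean over the 6 arrays of a tissue, per array (x axis), with the median of all 67 genes (black line) and of all 12430 probes tested in both tissues (dotted line). Cortical vehicle replicate 3 is the lowest array, at -0.41 for all genes.

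Without that array the cortical comparison looked different, although again none reached significance after adjustment. The median difference was -0.20, with 10 genes higher and 57 lower, against 0.023 over all probes. The AMI arrays lay wholly below the remaining vehicle arrays for 34 of 67 genes (background 13.1%) and wholly above for 2 (background 20.5%). An unadjusted p under 0.05 was reached by 24 lower genes (background 5.85%) and 1 higher gene (background 9.45%). Vehicle replicate 3 was singled out because these genes were low on it, so its removal by itself moves their differences down. The backgrounds count probes that were not chosen in this way, so they are no like comparison for these counts. By complex, 20 of 32 genes of complex I, 1 of 3 of complex II, 3 of 4 of complex III, 5 of 13 of complex IV and 5 of 15 of complex V had all AMI arrays below. Largest were Cox6a2 at -1.01 (SE 0.17, adjusted p = 0.122), Ndufa3 at -0.88 (SE 0.21, adjusted p = 0.129) and Ndufa2 at -0.67 (SE 0.15, adjusted p = 0.126). Without vehicle replicate 1 or 2 in its place, the median was 0.089 or 0.060, so the sign turned on which vehicle array was left out.

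**Figure D3:**
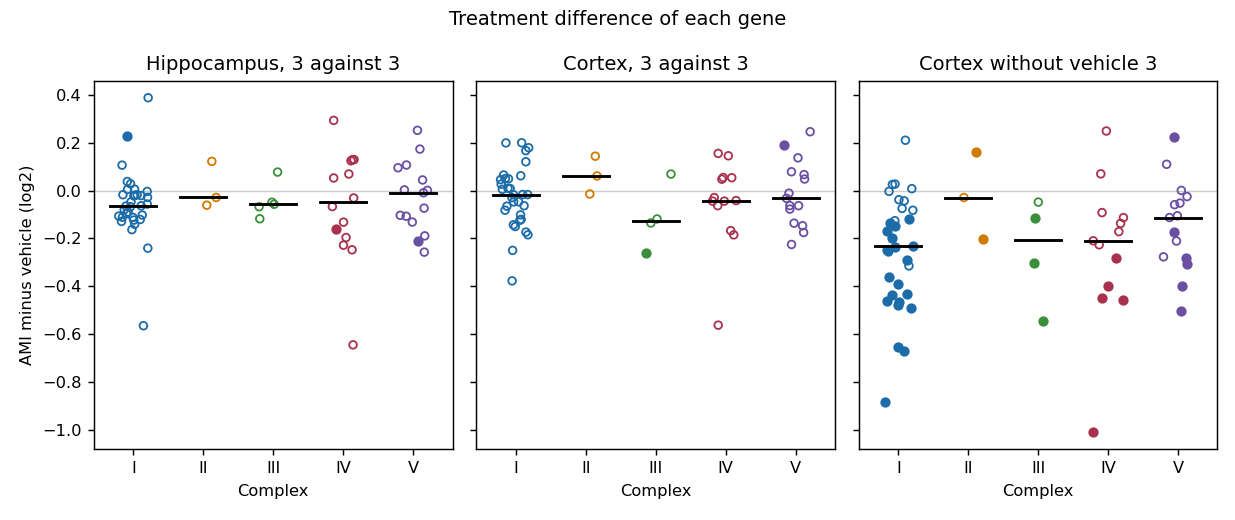
Log2 difference between AMI and vehicle (y axis) of each gene by complex in the hippocampus, in the cortex, and in the cortex without vehicle replicate 3. Black lines are medians, and filled points are genes whose AMI and vehicle arrays do not overlap, 34 of them lower in the last panel.

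Array differences in the hippocampus were smaller and depended on the scaling. AMI replicate 2 had a median deviation of -0.16 and was the lowest array for 38 of 67 genes (56.7%, against 9.89% of all probes), and vehicle replicate 1 had 0.14. After quantile normalization these became -0.0014 and -0.020, and after median centring 0.26 and -0.30. All probes tested in both tissues had medians of 0.21 and -0.22 on these arrays after median centring. With the main scaling their medians were 0.051 and -0.054. Cytoplasmic ribosomal protein genes had medians of -0.23 and 0.26 on the same arrays before quantile normalization, and mitochondrial ribosomal protein genes 0.027 and -0.0006. The sign of the hippocampal median difference changed with these choices: it was 0.081 after median centring, where all probes had a median of 0.069, and 0.0062 without vehicle replicate 1 or 0.0089 without AMI replicate 2.

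Whether AMI acted unequally in the 2 tissues was tested by the interaction term over 12 arrays. No gene passed (0 of 70, background 0% of 13677 probes), and 0 reached an unadjusted p under 0.05 (background 3.17%). The smallest p-values were those of Atp5f1 (-0.33, SE 0.16) and Cox7a2l (-0.32, SE 0.16), whose differences between AMI and vehicle were -0.13 and -0.16 in hippocampus, and 0.19 and 0.16 in cortex. Next came Uqcrc1 (0.23, SE 0.15) and Ndufb4 (0.32, SE 0.21).

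Genes were called only between the tissues, at a rate close to that of all probes. Counting both directions, 18 of 70 genes were called in vehicle mice, against 3433 of 13677 probes. For AMI mice these counts were 17 genes and 3694 probes. In vehicle mice 15 genes were higher in the hippocampus (background 15.0%) and 3 higher in the cortex (background 10.1%) of 70 tested. In AMI mice 16 were higher in the hippocampus (background 15.1%) and 1 in the cortex (background 11.9%). The 2 comparisons share no arrays, but they share the estimate of the spread and the split of scanner software between the tissues. They are therefore not independent. Across both, 13 genes were higher in the hippocampus (background 10.7%) and 1 lower (background 7.18%). The median log2 difference was 0.22 in vehicle and 0.21 in AMI mice, against 0.035 and 0.022 over all probes, with 53 and 52 genes higher. Cell type markers differed between the tissues too. In vehicle mice 3 of 6 neuronal markers were called higher in the cortex (median -0.54) and 5 of 9 microglial markers higher in the hippocampus (median 0.38), and in AMI mice the counts were 2 (median -0.37) and 3 (median 0.44). Oligodendrocyte markers had medians of -0.22 in vehicle mice, with 1 of 8 called higher in the cortex, and -0.48 in AMI mice, with 4 of 8. Endothelial markers had medians of -0.21 and -0.34, with 1 and 2 of 7 called higher in the cortex. The part of cell makeup in the tissue difference was not tested.

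In vehicle mice the median of complex III was -0.035 and those of the other complexes ran from 0.15 for complex I to 0.50 for complex II. Of the 3 genes of complex II, succinate dehydrogenase, 2 were called higher in the hippocampus in both treatments, and Sdhc had differences of 0.26 and 0.22 (SE 0.14). Sdhb, its iron-sulphur subunit, read 3.47, 3.23 and 3.13 on hippocampal and 2.72, 2.56 and 2.35 on cortical vehicle arrays, and 3.50, 3.34 and 3.34 against 2.62, 2.64 and 2.57 on AMI arrays. The tissues did not overlap. Sdhb was 1.66-fold higher in vehicle mice (log2 difference 0.73, SE 0.11, adjusted p = 0.00061) and 1.72-fold in AMI mice (adjusted p = 0.000394). Sdhd, a membrane anchor, was 1.42-fold and 1.25-fold higher (adjusted p = 0.00169 and 0.0201).

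In complex I the largest differences were in accessory subunits. Ndufb9 read 1.95, 1.68 and 1.63 in hippocampus and 1.05, 0.86 and 0.35 in cortex with vehicle, with mean levels of 1.75 and 0.75 (SE of the difference 0.16, adjusted p = 0.000676), and the difference with AMI was 0.77 (adjusted p = 0.00355). Again no array crossed over. Ndufb5 was 1.89-fold and 1.90-fold higher, and Ndufa7 1.86-fold and 1.84-fold. Ndufb2 and Ndufb7 were also higher in both treatments, while the core subunit Ndufs8 and the assembly factor Ndufaf1 were called in vehicle mice and Ndufb4 in AMI mice, where its probe was detected on 2 of 3 cortical arrays. Ndufc2, an accessory subunit of the membrane arm, went the other way, at 1.40-fold and 1.55-fold higher in the cortex (adjusted p = 0.0225 and 0.00551).

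Complex V had 5 genes higher in vehicle mice and 6 in AMI mice. Atp5h, a stator subunit, read 4.29, 3.90 and 3.99 in hippocampus against 3.24, 3.20 and 3.38 in cortex with AMI, with a clear gap. The difference was 0.78 (SE 0.18, adjusted p = 0.008), and 0.94 with vehicle. Atp5o, the stalk subunit that confers oligomycin sensitivity, differed by 0.80 and 0.64, Atp5a1 by 0.67 and 0.86, and Atp5d by 0.47 and 0.35. Atp5e was also called in both, but its probe was detected on 2 of 3 cortical vehicle arrays and 1 of 3 cortical AMI arrays, so its size is not given. Atp5sl was called with AMI only, at 0.40 against 0.17 with vehicle. Atp5j, a coupling subunit, was 1.51-fold higher in the cortex of vehicle mice (adjusted p = 0.0459), with arrays of the tissues overlapping.

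Of complexes III and IV few were called. Uqcrc2 was 1.40-fold higher in the cortex of vehicle mice (adjusted p = 0.0336). Uqcrfs1, the Rieske iron-sulphur protein, was called higher in the hippocampus of AMI mice (adjusted p = 0.0151), yet its probe was not well above background on any cortical array and on 3 of 6 hippocampal ones, so no fold is given. Cox7b, a small complex IV subunit, was detected on all hippocampal and no cortical arrays. It was at least 1.28-fold higher in the hippocampus of vehicle mice (adjusted p = 0.00295) and at least 1.38-fold in AMI mice (adjusted p = 0.00337), taking the dimmest detected probe of each cortical array as the floor.

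**Figure D4:**
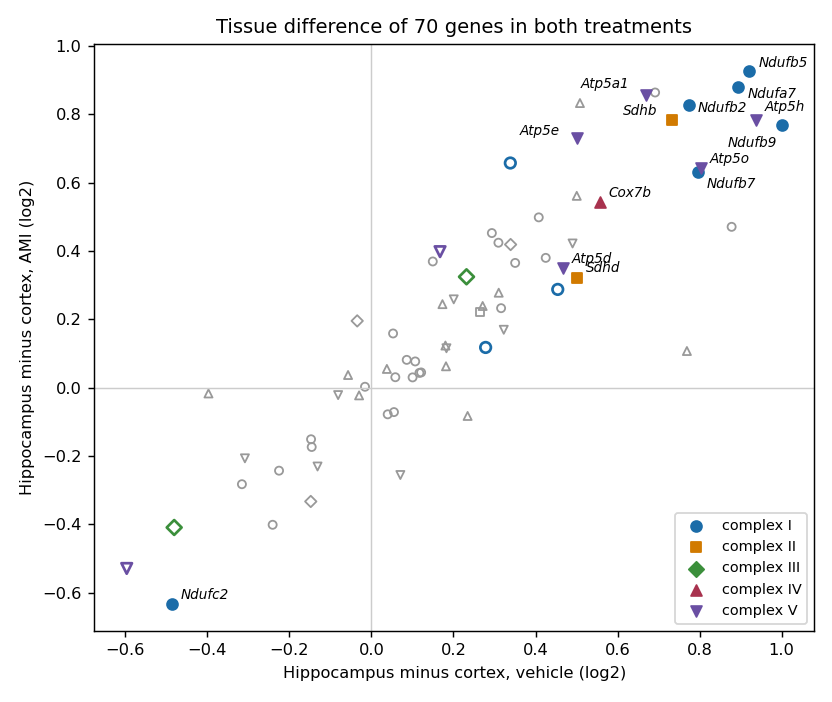
Log2 difference between hippocampus and cortex of 70 genes in vehicle mice (x axis) and in AMI mice (y axis). Filled symbols are the 14 genes with an adjusted p under 0.05 in both, coloured open symbols those called in 1 treatment, grey symbols the rest.

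The tissue difference went with brightness. Of 24 genes with a mean signal under 1024, 21 were higher in the hippocampus of vehicle mice with a median of 0.42, while 46 brighter genes had a median of 0.13, and over all probes the medians were 0.051 and -0.11. Scaling moved it too. Median centring gave a median of 0.70 with 68 of 70 genes higher in vehicle mice, where all probes had 0.18, and turned the 3 genes higher in the cortex to values from 0.042 to 0.17. The split of calls was 21 higher and 0 lower of 70 after median centring and 18 and 0 after neqc background correction. Of all 13677 probes, 2422 and 3913 were called in these settings, counting both directions. Cortical vehicle replicate 3 also entered here: without it the vehicle median was 0.085, with 12 genes called higher and 7 lower. Without it 2904 of 13553 probes were called, counting both directions.

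Promoter sequence is shown for genes that were higher in the hippocampus in both treatments and held a match to a motif of known regulators of respiratory genes. RefSeq promoters (GRCm38.p6, 250 bases before to 50 after each start) covered 63 of the 77 genes. The core motif of NRF-1, GCATGCGC, was in the promoters of 9 genes (14.3%, against 3.05% of all 27025 genes), that of ETS factors such as GABPA, CCGGAAG, in 16 (25.4%, against 9.93%), and that of YY1, AAGATGGC, in 11 (17.5%, against 3.19%), on either strand. Of the 13 genes, 11 had a promoter and 5 a match within 120 bases before the start. The share of all genes with a match in this shorter window was not counted. Cox6a1, Cox6b1, Ndufs3 and Uqcrh, which are not among the 13, also had a match there, so such a match is not particular to them. Capitals mark the match in each of the 5 sequences, read 5′ to 3′ on the gene's strand.
Sdhb, chr4:140961151-140961270, plus strand: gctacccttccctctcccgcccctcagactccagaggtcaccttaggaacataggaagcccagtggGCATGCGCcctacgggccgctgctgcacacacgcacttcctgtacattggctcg
Sdhd, chr9:50603850-50603969, minus strand: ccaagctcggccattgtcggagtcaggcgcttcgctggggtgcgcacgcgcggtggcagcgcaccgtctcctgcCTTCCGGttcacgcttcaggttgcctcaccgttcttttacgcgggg
Ndufb7, chr8:83566638-83566757, plus strand: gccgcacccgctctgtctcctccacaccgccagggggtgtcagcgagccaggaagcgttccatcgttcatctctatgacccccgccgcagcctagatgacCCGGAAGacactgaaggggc
Atp5e, chr2:174464102-174464221, minus strand: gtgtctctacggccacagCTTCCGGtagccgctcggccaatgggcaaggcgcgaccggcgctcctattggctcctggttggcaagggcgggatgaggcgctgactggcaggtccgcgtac
Atp5h, chr11:115419920-115420039, minus strand: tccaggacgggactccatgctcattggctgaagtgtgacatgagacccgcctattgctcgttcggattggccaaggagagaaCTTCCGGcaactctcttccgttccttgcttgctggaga

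The NRF-1 match of Sdhb began 54 bases before the start, and the ETS matches 46 bases before it in Sdhd, 38 in Atp5h, 20 in Ndufb7 and 102 in Atp5e. A match describes letters in the window and was not tested against expression.

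Probes of one gene did not always tell the same story about tissue. Sdhb had a second detected probe that shares 49 of its 50 bases with the first, and it gave a difference of 0.70 in vehicle and 0.54 in AMI mice (adjusted p = 0.000209 and 0.00134). Ndufs4, an accessory subunit of complex I, had 4 detected probes. The brightest gave -0.24 in vehicle mice, and the other 3 gave 0.59, 0.39 and 0.75, of which the first and last were called. The second probe of Atp5j gave -0.14 and was not called. Ndufa5 read -0.15 and 0.57 (adjusted p = 0.0423), and Ndufc1 0.32 and 0.86. For Cox6a1, Cox6b1, Cox4nb, Ndufa8 and Ndufb6 neither of the 2 probes was called. So the sign of the tissue difference of Ndufs4 and Ndufa5 depends on the probe. Their brightest probes, with the negative values, were not called in vehicle mice (limma, adjusted p = 0.247 and 0.727).

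The first 30 bases of a pair of Ndufs4 probes, each of 50 bases, show what was measured, with positions as the array file gives them and no build named there.
Ndufs4, brightest, chr13:115141677-115141726: gagcacatccacttggaagctggcagacaa
Ndufs4, called higher, chr13:115078879-115078928: gtcagctgtgcactatttatagtccatgga

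Between AMI and vehicle no probe of these genes was called in either tissue (limma, adjusted p).

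**Figure D5:**
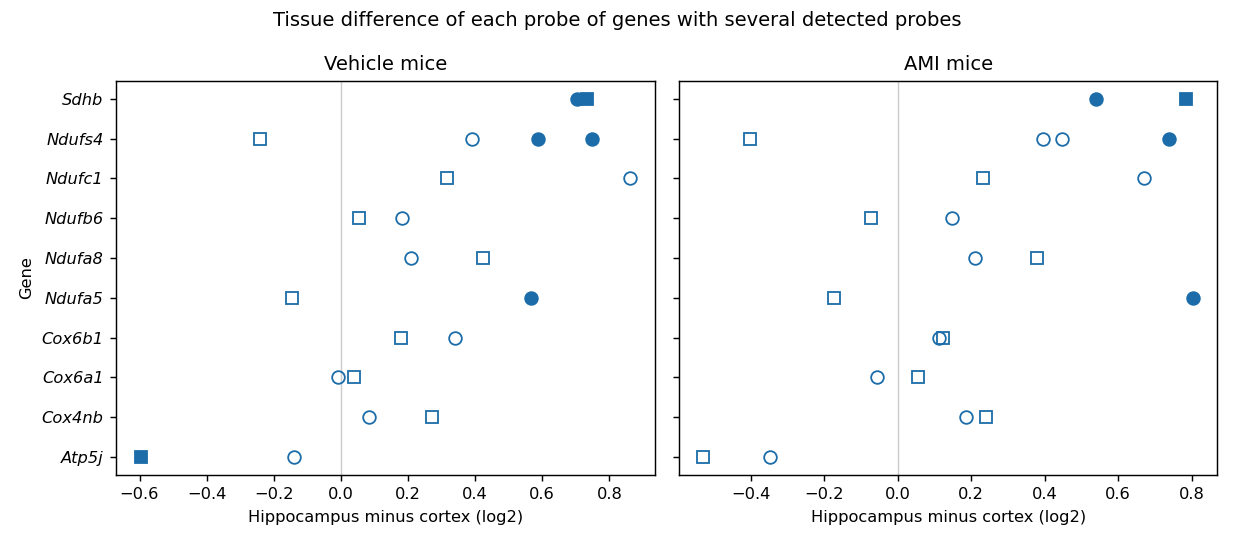
Log2 difference between hippocampus and cortex (x axis) of every detected probe of 10 genes (y axis), in vehicle and AMI mice. Squares are the brightest probe of a gene, circles its other probes, and filled symbols have an adjusted p under 0.05. Probes of Ndufs4 and Ndufa5 lie on opposite sides of 0, with those below 0 not called.

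Related mitochondrial lists were read against the same background between tissues in vehicle mice, 15.0% of probes higher in the hippocampus and 10.1% higher in the cortex, and their difference from the oxidative phosphorylation genes was not tested. Of 15 tested citric acid cycle genes, 4 were higher in the hippocampus of vehicle mice and 0 lower, with a median of 0.16, and citrate synthase, Cs, was 0.38 higher (SE 0.12, adjusted p = 0.0387). Of 9 carriers and pores, 1 was higher and 1 lower (median -0.13). Of 19 assembly factors with cytochrome c and Cyc1, 2 were higher and 2 lower (median 0.14). Of 12 regulators of mitochondrial genes, 1 was higher and 0 lower (median -0.045). The calls differed in AMI mice, where the backgrounds were 15.1% and 11.9%. There 3 citric acid cycle genes were higher and 0 lower (median 0.089), and 0 and 2 carriers and pores (median -0.13). Assembly factors had 3 higher and 1 lower (median 0.069), and regulators 0 and 2 (median 0.15). With AMI against vehicle none of these lists had a called gene in either tissue. Their medians ran from -0.021 for the citric acid cycle to 0.086 for the regulators in the hippocampus, and from 0.0072 to 0.089 for the same lists in the cortex.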

How the data were processed

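The authors hybridised RNA to Illumina MouseRef-8 BeadChips and deposited 1 table per tissue with mean bead intensity and detection p-value per probe, without normalization or background subtraction per the file headers (BeadStudio 3.4.0 for the hippocampus, GenomeStudio 1.1.1 for the cortex). The study's methods name z normalization without its formula. Here the intensity was turned to log2, and each array had its mean subtracted, was divided by its SD and multiplied by the mean SD. Within a tissue, a probe entered when 3 or more of its 6 arrays had a detection p up to 0.05. Testing used limma 3.58.1 in R 4.3.3 (AMI against vehicle within a tissue, and tissues and interaction in 1 fit of 12 arrays, for probes detected so in either tissue), with Benjamini-Hochberg adjustment over all probes tested and a threshold of 0.05. The study's cutoffs (z ratio of 1.5, p of 0.05, false discovery rate of 0.3) were an alternative. The tests were checked on simulated data with independent noise for each probe and changes larger than most differences here. That check does not cover shifts that many genes share on an array. Background as a percent counts all probes called by the same rule.

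Groups come from the sample titles. Same-numbered hippocampal AMI and vehicle arrays deviated together over all probes (correlations of 0.611, 0.296 and 0.293), so the number was taken as pairing them. Differently numbered ones ran from -0.472 to 0.280, so the pairing is an assumption made from these data. The main fits left the pairing out, and an alternative fit used the number as a block. In the cortex the number was not taken as pairing (-0.061, 0.329 and 0.333, with differently numbered arrays from -0.421 to 0.271). Named genes are the complex IV and V isoforms and Ndufa4, the smallest p per complex and direction in each comparison, called genes (the 3 largest per complex and direction where many), genes apart in both tissues, those the study lists, and those not detected everywhere. Further called genes and those named for single arrays, for other probes or on cortical vehicle replicate 3 were chosen after their values were seen. The members, marker and mitochondrial lists were chosen with earlier results of these data known. The number of arrays limits the precision. The values of 1 member gene are not reported here, though it stays in the counts and medians.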

Additional observations from a re-analysis of the deposited data

How the results depend on the processing

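No oxidative phosphorylation gene passed an adjusted p of 0.05 between AMI and vehicle, or in the interaction, under any alternative tried. By the study's looser cutoffs 0 genes passed in either tissue in the main fit. With array weights 13 passed them in the cortex and 4 in the interaction, and 20 did in the cortex without vehicle replicate 3. The share of all probes passing these cutoffs was not counted. The median difference between AMI and vehicle depended on scaling and single arrays. In the hippocampus it was -0.056 and became 0.081 after median centring. Leaving out each array gave -0.12 to 0.0089 in the hippocampus and -0.20 to 0.089 in the cortex, where vehicle replicate 3 gave the lowest value. Cortical medians were 0.036 after quantile normalization, 0.039 after neqc and 0.084 after median centring. With array weights the cortical median was -0.12, with 10 genes higher and 57 lower and a smallest adjusted p of 0.0518 by limma. Between tissues, 18 genes were called in vehicle mice (14 to 19 with an array left out) and 17 in AMI mice (12 to 27, the highest without cortical vehicle replicate 3). In AMI mice the count was 26 of 70 after quantile normalization and 36 with array weights. Of all 13677 probes, 4424 and 6787 were called in those settings, against 3694 in the main fit. Without cortical vehicle replicate 3, 4220 of 13553 probes were called in AMI mice. Median centring moved the median tissue difference to 0.70 in vehicle and 0.70 in AMI mice and reversed Ndufc2 to 0.042, Uqcrc2 to 0.17 and Atp5j to 0.054 in vehicle mice, none called. With an array left out, the median tissue difference was 0.085 to 0.32 in vehicle and 0.16 to 0.26 in AMI mice. With the replicate block, 0 genes passed in either AMI comparison. In the tissue comparisons, where numbers were not taken as pairing the arrays, 20 and 21 passed. Of all 13677 probes, 3590 and 3859 passed there. The causes were not tested. Dim genes near background, such as Ndufb4, Cox7b and Uqcrfs1, are limited by signal over background.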
